A study of Mus musculus with 4 samples.

Results

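The ribosomal protein pseudogenes described here are the mouse genes whose annotated symbol begins with Rpl or Rps and a number and contains -ps, the mark of a pseudogene. The rule, which uses names and no measured value, gave 289 of the 55536 annotated mouse genes. The annotation calls 276 of them processed pseudogenes, 7 transcribed processed pseudogenes and 6 protein-coding genes. Their symbols point to 59 parent genes, of which 58 are annotated (Rpl48 is not), and 275 of the 288 with an annotated parent lie on another chromosome than that parent. Rpl31 and Rps12 have 24 such pseudogenes each and Rpl21 has 15, while 17 parents have 1. Copies under any other kind of name fall outside the rule and outside these numbers.

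Total RNA was sequenced from T cells of the spleen, described in the labels by the CD3 antigen, of male B6CASTF1/J mice aged 66 days, bred from C57BL/6 mothers and CAST/EiJ fathers. There was 1 group of 4 libraries, called libraries 1 to 4 after their replicate numbers, each from 300 ng of RNA with spike-ins. The labels give no treatment or second genotype, so the comparisons are between pseudogene and parent, between libraries, and between the 2 deposited quantifications of the same libraries. The labels number the samples as biological replicates, give all 4 the same donor identifier and do not say outright that they are separate animals. SDs and p-values therefore cover the spread between these samples, which may be technical.

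The first quantification, called alignment-based here, rests on reads aligned to the transcriptome, and the second, called read-based, on a read file and an index. Both give TPM, a level that is scaled to length and to a fixed sum over all transcripts. The alignment-based tables held 15818334, 17335895, 16439475 and 14584388 estimated counts in libraries 1 to 4. Summed T cell marker TPM was 2331 to 2430 over 8 markers, each of at least 99.1 TPM on average. Markers of other spleen cells summed to 9.07 to 116 TPM for B cells, 15.2 to 633 TPM for erythroid cells, 8.64 to 27.5 TPM for neutrophils, 21.8 to 25.1 TPM for monocytes and macrophages and 7.43 to 12.2 TPM for natural killer cells, with no marker at 0 in every library. Library 4 held the highest B cell and erythroid sums and library 2 the highest neutrophil sum.

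A processed pseudogene is a copy of a spliced messenger RNA that was reverse transcribed and inserted elsewhere in the genome, so it lacks the introns and usually the promoter of its parent. The proteins of the large (Rpl) and small (Rps) ribosomal subunit come from short, highly expressed genes, and they have left many such copies in mammalian genomes. A copy that has kept the sequence of its parent cannot be told from the parent's messenger RNA by short reads alone. A level printed for such a gene is therefore partly an assignment made by the quantifier.

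Over the 287 pseudogenes that could be aligned with a coding transcript of the parent, the median identity was 95.8% (lower quartile 90.5%, upper quartile 98.6%), and 13 were identical over the aligned length. Each pseudogene was then cut into all its windows of 101 bases, the read length implied by the deposited effective lengths, and each window was looked up in all other annotated transcripts. Every window of 31 pseudogenes occurred in another gene, and every window of 117 occurred in no other gene. A further 47 had up to 50% of windows of their own and 94 had more than 50% but not all.

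The sequences below, taken from the GENCODE M21 transcripts of GRCm38 (mm10), show what the quantifiers had to work with. Each is the 60-base window within the coding sequence of the parent that holds the most differences, 5′ to 3′ on the sense strand, with the differing bases in capitals. The first pair stands for copies with no difference at all, the next pairs for copies of which most windows are their own, and the last for a copy that occurs in several places.
Rps23-ps1: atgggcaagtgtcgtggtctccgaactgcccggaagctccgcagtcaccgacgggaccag
Rps23: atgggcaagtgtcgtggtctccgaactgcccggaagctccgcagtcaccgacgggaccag
Rps15-ps2: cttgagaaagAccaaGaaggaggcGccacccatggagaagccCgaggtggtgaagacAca
Rps15: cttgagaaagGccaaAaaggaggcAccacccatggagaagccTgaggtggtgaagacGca
Rpl28-ps3: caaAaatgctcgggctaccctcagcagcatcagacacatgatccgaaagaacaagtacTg
Rpl28: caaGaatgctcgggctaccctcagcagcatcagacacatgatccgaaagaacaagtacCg
Rpl35a-ps2: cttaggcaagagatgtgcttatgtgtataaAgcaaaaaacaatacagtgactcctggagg
Rpl35a: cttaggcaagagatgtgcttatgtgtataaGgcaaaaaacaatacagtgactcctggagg

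Rps23-ps1 lies on chromosome 3 (37714740 to 37715164, plus strand) and its parent on chromosome 13. Over its whole length Rps15-ps2 differs from Rps15 at 10 positions and Rpl28-ps3 from Rpl28 at 3, which leaves 95.3% and 84.0% of their windows found in no other gene. Rpl35a-ps2 shares its entire sequence with Rpl35a-ps3, Rpl35a-ps4 and Rpl35a-ps6, on chromosomes 1, 17, 2 and 5, and that sequence is 99.7% identical to Rpl35a. In all, 14 pseudogenes belong to such groups of identical copies.

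The summed level of the pseudogenes depended on the quantification more than on the library. Read-based TPM summed to 3744, 4139, 3892 and 4201 in libraries 1 to 4, and alignment-based TPM to 9370, 9819, 9518 and 9378. The ranges of the quantifications did not overlap, and within each the SD over libraries was 213 and 210 TPM around means of 3994 and 9521. As a share of all estimated counts, which is free of length scaling, the pseudogenes took 0.127% ± 0.0036 in the read-based and 0.398% ± 0.0093 in the alignment-based tables (SD, n = 4). The 87 cytosolic ribosomal protein genes took 3.88% ± 0.142 and 3.91% ± 0.128 of counts.

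A level of at least 1 TPM in every library was reached by 24 of the 289 pseudogenes in the read-based quantification and by 48 (16.6%) in the alignment-based one, where 21% of all genes reached it. The share of all genes was not taken for the read-based tables. Read-based levels of protein-coding genes ran higher by a median of 0.302 to 0.412 on log2(TPM + 1), so 1 TPM is not the same mark in both. Among other groups the alignment-based level was reached by 84 of 87 cytosolic ribosomal protein genes and by 64 of the 1267 other genes named -ps. The lists shared 19 pseudogenes, which is 79.2% of the read-based and 39.6% of the alignment-based list. Of the 48, 18 were listed at 0 in every read-based library. Just above the 1 TPM mark on the alignment-based mean stood Rpl13-ps1, Rpl23a-ps2 and Rpl30-ps9, and just below it Rps12-ps4, Rpl10-ps6 and Rpl5-ps2. Rpl30-ps9 came to its mean through 5.34 TPM in library 1 and 0 in the other libraries. The rest kept between 0.2 and 1.65 TPM where they were above 0, except Rps12-ps4, with 1.83 and 2.1 TPM in libraries 1 and 2 and 0 in libraries 3 and 4.

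No count was assigned in any library to 157 pseudogenes by the read-based and to 153 by the alignment-based quantification, and 117 had none in either. After rounding to whole numbers, 134 of 289 pseudogenes had an alignment-based count in some library, beside 23727 of all 55536 genes. Absence of counts is therefore common among all genes and not particular to these pseudogenes. A count of 0 allows up to 3 counts, which is 0.173 to 0.206 CPM in these libraries and covers counting error only. The pseudogenes that can be told apart best were the least detected. Of the 117 with every window their own, 91 had no read-based and 96 no alignment-based count. With none, up to 50% and more than 50% but not all windows their own, 16 of 31, 21 of 47 and 29 of 94 had no read-based count. The alignment-based numbers were 10, 14 and 33, so detection did not fall steadily as the share of own windows rose. In the alignment-based tables the 31 without a window of their own made 56.9% of the summed TPM.

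**Figure D1:**
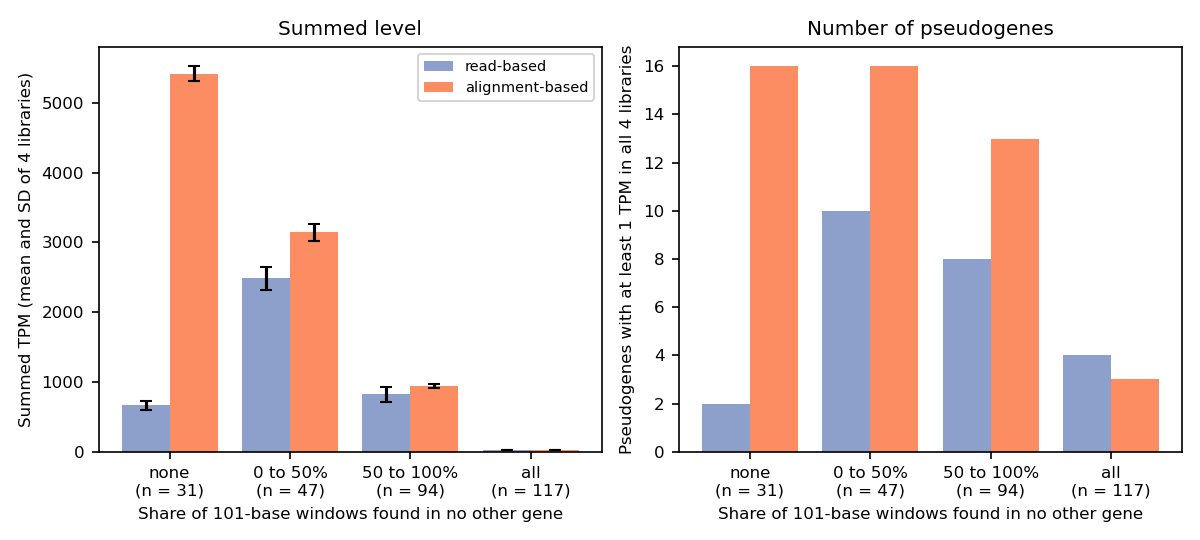
Summed TPM (left, mean and SD of 4 libraries) and number of pseudogenes with at least 1 TPM in all 4 libraries (right), read-based beside alignment-based, by the share of 101-base windows found in no other annotated gene. The 31 pseudogenes with no such window summed to 662 TPM read-based and 5415 TPM alignment-based, and the 117 with only such windows to 23.6 and 20.9 TPM.

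Levels were concentrated in few pseudogenes. On alignment-based TPM, 5 pseudogenes held 42.6% ± 0.731 and 20 held 87.5% ± 0.578 of the summed TPM (SD, n = 4), and the 20 include copies of both ribosomal subunits. Among copies of large-subunit genes, Rpl28-ps1 had 799, 845, 770 and 766 TPM in libraries 1 to 4, and Rpl10-ps3 had 688, 721, 678 and 662 TPM. Rpl10 encodes a protein that joins the large subunit late in its assembly. Rpl31-ps8 followed at 540 ± 24.4 TPM, Rpl36a-ps2 at 466 ± 12.7 TPM and Rpl3-ps1, a copy of the gene for a protein near the peptidyl transferase centre, at 330 ± 16.4 TPM (SD, n = 4 each). Rpl27-ps3, Rpl34-ps1, Rpl17-ps5, Rpl14-ps1 and Rpl28-ps3 lay between 310 and 205 TPM.

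Among copies of small-subunit genes, Rps23-ps1 had the highest level of any pseudogene, with 1394, 1507, 1439 and 1386 alignment-based TPM in libraries 1 to 4. Rps23 encodes a protein of the decoding centre of the small subunit. Rps16-ps2 had 547, 613, 664 and 579 TPM. Rps12-ps3 had 494 ± 48.3 TPM, Rps13-ps1 430 ± 13.6 TPM and Rps2-ps13 344 ± 14.4 TPM (SD, n = 4 each). Rps18-ps3, Rps26-ps1, Rps19-ps6, Rps12-ps10 and Rps15-ps2 lay between 208 and 179 TPM. Neighbours in this lower part of the order overlapped between libraries, so their order is not fixed beyond the spread. The 5 pseudogenes with the highest estimated counts were Rps23-ps1, Rpl10-ps3, Rpl3-ps1, Rps2-ps13 and Rpl28-ps1, with means of 7620 to 4088 counts.

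**Figure D2:**
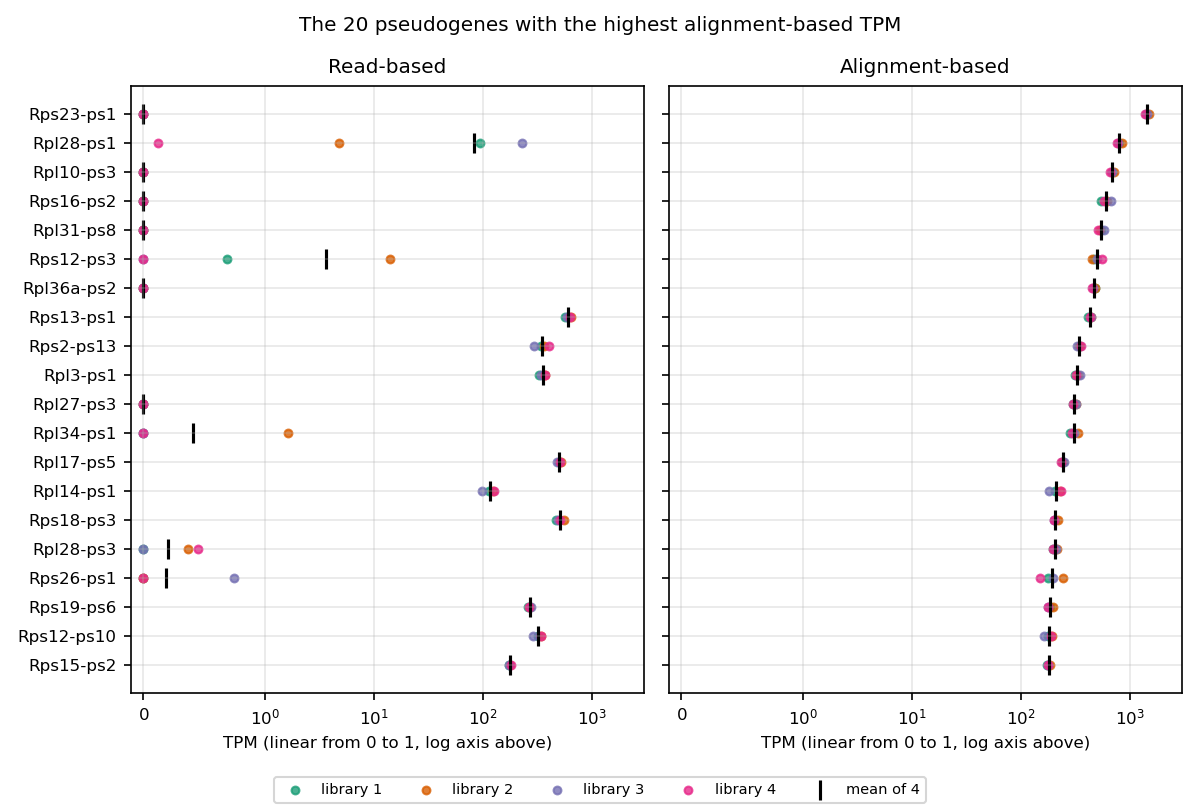
TPM of the 20 pseudogenes with the highest alignment-based mean, read-based in the left panel and alignment-based in the right panel, with a point per library and a bar at the mean of 4. Alignment-based points lie between 151 and 1507 TPM, whereas read-based points lie at 0 for Rps23-ps1, Rpl10-ps3, Rps16-ps2, Rpl31-ps8, Rpl36a-ps2 and Rpl27-ps3 and spread from 0.12 to 231 TPM for Rpl28-ps1.

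The quantifications were compared gene by gene on log2(TPM + 1), read-based minus alignment-based within each library, after subtracting the median difference of 10115 protein-coding genes (0.302 to 0.412 by library). Of 92 pseudogenes tested, 36 were lower in the read-based tables by at least 1 on the log2 scale and 5 were higher, with limma's adjusted p below 0.05 over all 17966 genes tested. Over all genes tested 3.4% were lower and 6.32% higher by the same rule (9.71% in either direction). Without the subtraction the counts among pseudogenes were 32 lower and 11 higher (12.0%), beside 2.79% lower and 10.7% higher over all genes tested. The median difference was -0.71 over the pseudogenes tested and 0.01 over all genes tested. It was 0.14 for 84 cytosolic ribosomal protein genes, of which 2 were lower and 9 higher, -0.10 for 135 other genes named -ps, of which 23 were lower and 10 higher, and 0.16 for 11 translation factors, of which none was called. Because both values come from the same libraries, this is a difference between methods and not between cells.

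The 10 largest differences were all lower read-based levels. Rps23-ps1 was listed at 0 in every read-based library, against the 1386 to 1507 alignment-based TPM above, a difference of -10.84 (SE 0.04, limma adjusted p = 4.2e-07). Its parent Rps23 stood at 1817 ± 76.1 read-based and 461 ± 8.4 alignment-based TPM (SD, n = 4). In the alignment-based tables the copy therefore exceeded its parent in each library, and in the read-based tables it did not in any. Rpl10-ps3, Rps16-ps2, Rpl31-ps8, Rpl36a-ps2 and Rpl27-ps3 were likewise at 0 in every read-based library, with differences of -9.78 to -8.64. Rpl34-ps1, Rps12-ps3, Rpl28-ps3 and Rps26-ps1 reached at most 1.65, 14.1, 0.45 and 0.75 read-based TPM in a library.

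Identity with the parent does not by itself describe these pairs. Rps16-ps2, Rpl31-ps8, Rpl36a-ps2, Rpl27-ps3, Rps12-ps3 and Rps23-ps1 are identical to their parents over the aligned length. Rpl10-ps3 was scored at 18 differences from Rpl10 over 648 aligned bases, a score of the single best alignment. Yet 95.8% of its windows occur unchanged in Rpl10, and only 4.19% occur in no other gene. The 18 therefore do not mark differences spread along the copy, most of which cannot be told from Rpl10. Rpl28-ps3, shown above, has 84.0% of its windows to itself and still had 0, 0.37, 0 and 0.45 TPM in the read-based libraries 1 to 4, against 199, 214, 210 and 198 alignment-based TPM. That difference was -7.80 (SE 0.11, limma adjusted p = 1.1e-05). Rpl17-ps5 is the opposite case, with no window and no 31-base stretch of its own, yet 500 ± 17.7 read-based and 242 ± 6.81 alignment-based TPM. Of its windows 55.6% occur in Rpl17 and 89.7% in other ribosomal protein pseudogenes. Part of its sequence can therefore be told from the parent, though not from every other copy.

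Rpl28-ps1, identical to Rpl28, had read-based levels that differed widely between libraries. It had 94.6, 4.77, 231 and 0.12 read-based TPM in libraries 1 to 4, against 766 to 845 alignment-based TPM. The read-based value was highest in library 3 and lowest in library 4, and no library reached the alignment-based range. Rpl28 itself stood at 1369 ± 102 read-based and 824 ± 20.9 alignment-based TPM. The difference of -5.71 (SE 1.5) had a limma adjusted p of 0.035, and the call was lost without library 1 (0.068), library 2 (0.11) or library 4 (0.076).

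**Figure D3:**
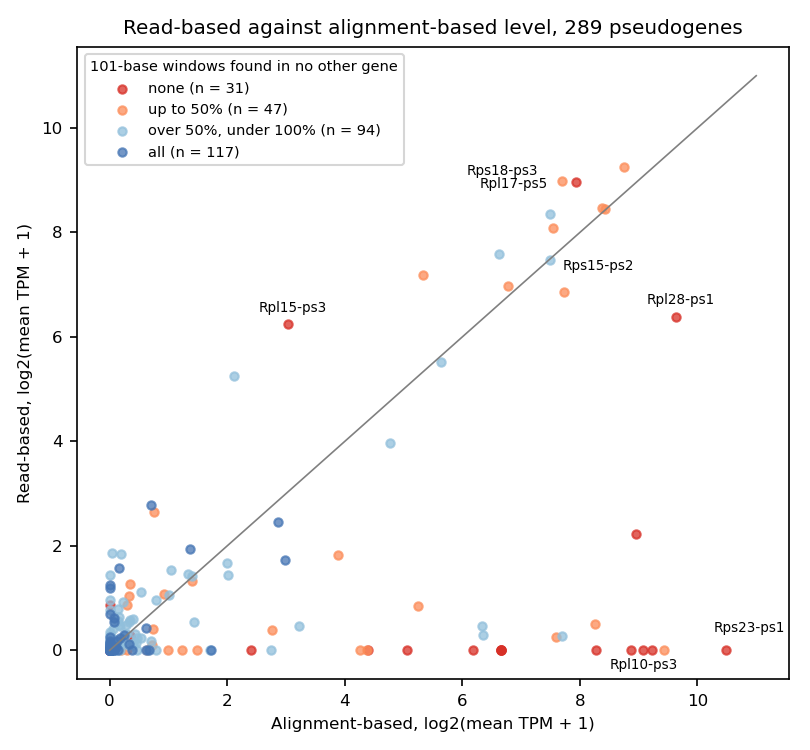
Mean read-based against mean alignment-based level of the 289 pseudogenes, as log2(TPM + 1), coloured by the share of 101-base windows found in no other gene, with the line of equality. Pseudogenes along the lower edge have alignment-based levels up to 1432 TPM and read-based levels at or near 0.

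The 5 pseudogenes called higher in the read-based tables are named after their values were seen. Rpl15-ps3, identical to Rpl15, had 56.3, 85.5, 41.3 and 115 read-based TPM in libraries 1 to 4, against 4.11, 0, 0 and 24.6 alignment-based TPM, and its call was lost without library 3 (limma adjusted p = 0.064). Rpl19-ps11 had 82.3, 179, 120 and 193 read-based TPM against 42.0, 40.9, 32.5 and 40.8 alignment-based TPM. These groups of values do not overlap for either gene. Rpl19-ps10, Rpl31-ps9 and Rps7-ps2 averaged 5.89, 5.29 and 2.62 read-based TPM and under 1 alignment-based TPM. These 3 calls were lost with a pseudocount of 5, and those of Rpl19-ps10, Rpl19-ps11 and Rpl31-ps9 when CPM took the place of TPM. Rps7-ps2 is 51.5% identical to Rps7, and no ribosomal protein gene came closer than Rpl5 at 53.1%. Such low values do not show a relation to either gene.

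Some copies had similar TPM, as deposited, in both quantifications. Rps15-ps2, with 95.3% of windows its own, had 173, 176, 173 and 183 read-based TPM in libraries 1 to 4 and 174, 187, 177 and 179 alignment-based TPM. Its counts were less alike. Of the counts of Rps15 and Rps15-ps2 together, it held 6.69% ± 0.299 read-based and 10.7% ± 0.279 alignment-based (SD, n = 4). Rps2-ps13 had 350 ± 45.4 read-based and 344 ± 14.4 alignment-based TPM, and Rpl3-ps1 had 354 ± 21.6 and 330 ± 16.4 TPM. These pairs of ranges overlap as deposited. Rps12-ps10, with 91.3% of windows its own and 4 differences from Rps12, had 324 ± 25.6 read-based and 180 ± 13.7 alignment-based TPM, and its difference of 0.49 on the centred log2 scale stayed under the size of 1. Rps13-ps1, Rps18-ps3 and Rps19-ps6 were higher as deposited in the read-based tables, at 609, 506 and 269 TPM on average, with centred differences of 0.14, 0.92 and 0.18.

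Of the 48 pseudogenes with 1 TPM or more, 16 have more than 50% of windows to themselves, out of 211 such pseudogenes in all. In both quantifications 9 of the 16 reached 1 TPM in every library. Among them are Rps15-ps2, Rps12-ps10 and Rps15a-ps4, and Rpl36-ps12, Rpl7-ps7, Rps12-ps26, Rpl36-ps3 and Rpl31-ps6, which fall outside the rule for named genes and were chosen after their values were seen. The windows were compared with annotated transcripts of the C57BL/6 reference only. Genomic sequence outside the annotation and the CAST/EiJ alleles of these F1 mice were not used here.

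The ratio of a pseudogene to its parent was taken within each library as log2((TPM + 0.1)/(parent TPM + 0.1)). On alignment-based TPM 282 of 288 pseudogenes were below their parent in 4 of 4 libraries. Rps23-ps1, Rpl10-ps3, Rpl36a-ps2 and Rpl27-ps3 were above it in 4 of 4 libraries, with log2 ratios of 1.63 ± 0.05, 1.62 ± 0.14, 0.95 ± 0.11 and 2.78 ± 0.20 (SD, n = 4 each). The exact sign-flip permutation test (two-sided, over libraries) gave each of them the smallest p that 4 libraries allow, which is 0.126 after Benjamini-Hochberg adjustment over 288 ratios, so none could pass 0.05. On read-based TPM all 4 were below their parents. On alignment-based TPM Rps12-ps3 had a ratio of 0.15 ± 0.35, and Rpl28-ps1 one of -0.05 ± 0.06. In that quantification neither was separated from its parent beyond the spread between libraries. Their mean ratios on read-based TPM were -10.95 and -6.78.

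Parent and pseudogenes named -ps were added into families to see how each quantification divided the counts between them. Copies under other names are not in these families. By read-based counts, the pseudogenes held 10% or more of the family in 8 of 58 families and 50% or more in none. By alignment-based counts, they held 10% or more in 20 families and 50% or more in 6. The highest alignment-based share was in the Rpl27 family, at 0.210% ± 0.275 read-based and 82.1% ± 1.71 alignment-based. For Rpl10 it was 0.0657% ± 0.0375 and 74.4% ± 1.86, and for Rps23 it was 0 in every read-based library and 71.2% ± 0.992 alignment-based (SD, n = 4).

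Over the 20 families the share of all counts given to the parent differed between quantifications by a median of 0.27 in absolute log2 ratio, and the share given to the whole family by 0.11. The family was the closer of the pair in 14 of 20. These 20 families were chosen for their alignment-based pseudogene share, which favours parents with few alignment-based counts. The outcome is therefore partly set by the choice and describes these families only. The Rps23 parent had 3.36 ± 0.117 times its alignment-based share of counts in the read-based tables, and the Rps23 family 0.968 ± 0.0084 times. The Rpl10 parent had 3.68 ± 0.261 times and its family 0.939 ± 0.0034 times. The Rpl27 and Rpl36 families did not come as close, at 1.72 ± 0.0139 and 0.346 ± 0.0099 times (SD, n = 4 each). In the Rps2, Rps13 and Rpl3 families the pseudogenes held a sizeable share in both quantifications, with 39.8%, 35.4% and 33.5% read-based and 48.5%, 43.1% and 38.0% alignment-based.

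**Figure D4:**
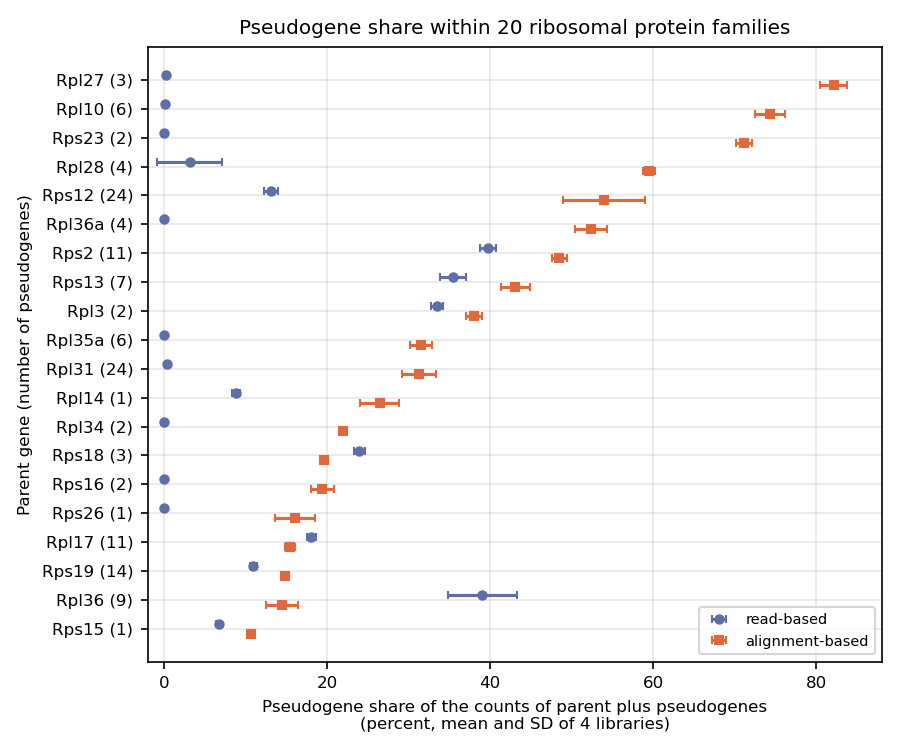
Share of the estimated counts of a parent plus its pseudogenes that was assigned to the pseudogenes, as mean and SD of 4 libraries, for the 20 families with at least 10% in the alignment-based tables, read-based above alignment-based in each row. Read-based shares lie near 0 for Rpl27, Rpl10, Rps23, Rpl36a, Rpl35a, Rpl31, Rpl34, Rps16 and Rps26, and exceed the alignment-based share for Rps18, Rpl17 and Rpl36.

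In the largest families few copies had an alignment-based level. Of the 24 Rps12 pseudogenes, Rps12-ps3, Rps12-ps10 and Rps12-ps26 reached 1 alignment-based TPM in every library, and of the 24 Rpl31 pseudogenes Rpl31-ps8 and Rpl31-ps6 did. None of the 15 Rpl21 pseudogenes did. Rps12-ps10, Rps12-ps26 and Rpl31-ps6 reached 1 TPM in every library of both quantifications, and Rpl31-ps9 in the read-based one only. Rpl31-ps8 was at 0 in every read-based library, and Rps12-ps3 had at most 0.692 read-based TPM outside library 2. The identical Rpl35a-ps2, Rpl35a-ps3, Rpl35a-ps4 and Rpl35a-ps6 show an even split, with 102, 101, 98.9 and 97.2 alignment-based TPM in libraries 1 to 4 for each of them and 0 in the read-based tables. The deposited posterior SD of their counts, the quantifier's own uncertainty within a library, was 67.7% to 78.0% of the mean count. Over the 48 pseudogenes with 1 TPM or more that ratio had a median of 7.27%, and it exceeded 20% in 12 of them.

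Counts varied between libraries more than the dispersion trend of all genes allows in 4 of 46 pseudogenes tested, by edgeR's goodness-of-fit test with Benjamini-Hochberg adjustment over 13118 genes. Over all genes tested 1.4% were called. At an unadjusted p under 0.05 there were 8 pseudogenes and 603 genes in all. Among 84 cytosolic ribosomal protein genes 2 were called, among 67 other genes named -ps 4, and among the 11 translation factors none. The test takes the estimated counts as observed, so its p-values leave out the uncertainty of assigning reads to copies. Deposited intervals, which carry that uncertainty, were compared between libraries for Rps15a-ps7 only.

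Rps15a-ps7 had 136, 72.4, 68.0 and 45.4 alignment-based TPM in libraries 1 to 4 (edgeR adjusted p = 5.1e-12). Library 1 was the highest, at 1.88 times library 2, and library 4 the lowest. The deposited interval was 99.4 to 163 TPM in library 1 and 24.2 to 63.1 TPM in library 4. For this pseudogene these libraries therefore do not overlap within the quantifier's own uncertainty either. Its parent Rps15a had 1239, 1269, 1186 and 1097 TPM. The pseudogene differs from Rps15a at 5 positions, has 56.8% of windows to itself, and had 0.93 read-based TPM in library 2 and 0 in the others.

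Rps6-ps4, identical to Rps6, the gene of the small-subunit protein phosphorylated by S6 kinases, had 21.2, 37.1, 27.0 and 44.6 TPM in libraries 1 to 4 (edgeR adjusted p = 0.0046). Rps26-ps1 had 179, 241, 199 and 151 TPM (edgeR adjusted p = 0.015). Rps27a-ps2, a copy of a gene that encodes ubiquitin fused to a ribosomal protein, had 30.3, 13.3, 12.1 and 16.9 TPM (edgeR adjusted p = 0.044). The highest library differed among the 4 genes, being library 1 for Rps15a-ps7 and Rps27a-ps2, library 4 for Rps6-ps4 and library 2 for Rps26-ps1. In the read-based tables Rps6-ps4 and Rps27a-ps2 were at 0 in every library and Rps26-ps1 reached 0.75 TPM in library 3.

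The calls changed with single libraries. Without library 1 the call remained for Rps26-ps1 and was lost for the other three. Without library 2 it remained for Rps15a-ps7 and Rps6-ps4, without library 3 it was lost for Rps27a-ps2, and without library 4 it was lost for Rps26-ps1. Library 4, highest for Rps6-ps4 and lowest for Rps15a-ps7 and Rps26-ps1, is the library with the highest B cell sum (116 TPM against 9.07 to 12.9 TPM) and erythroid sum (633 TPM against 15.2 to 62.3 TPM). Library 2, highest for Rps26-ps1, had the highest neutrophil sum (27.5 TPM against 8.64 to 9.55 TPM). Their part in these results was not tested. In bulk RNA, fewer cells of a type and less RNA per cell cannot be told apart.

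**Figure D5:**
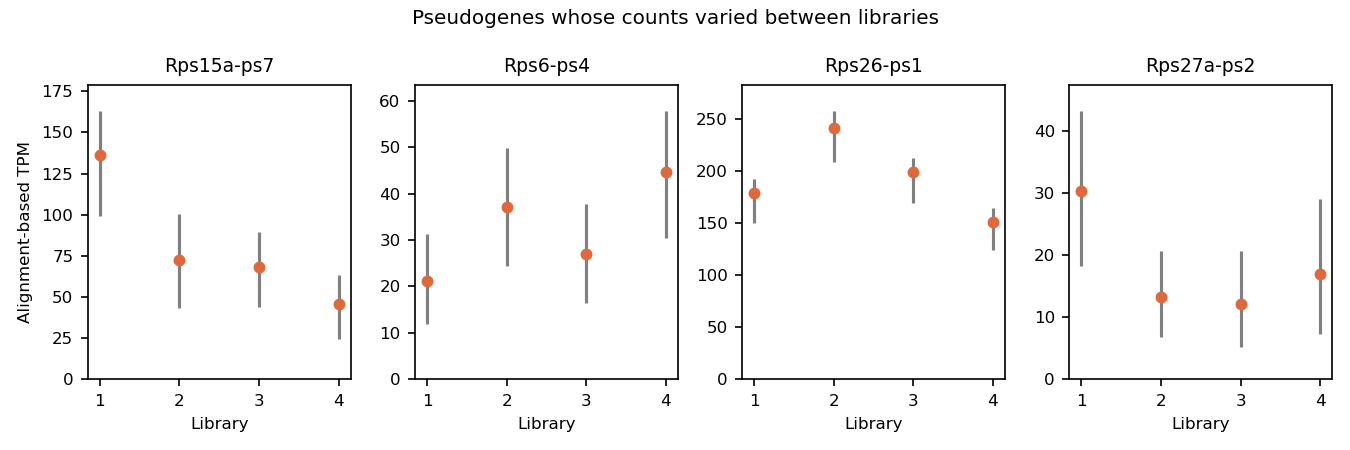
Alignment-based TPM by library of the 4 pseudogenes called as varying, with the deposited interval of each value as a grey line. Rps15a-ps7 and Rps27a-ps2 were highest in library 1, Rps6-ps4 in library 4 and Rps26-ps1 in library 2.

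The 13 members annotated as something other than a processed pseudogene were not uniformly detected, and 6 of them had at least 1 alignment-based TPM in every library. Besides Rpl10-ps3 and Rps12-ps3, annotated as protein-coding, and Rps26-ps1, annotated as transcribed, these were Rpl9-ps6, Rps2-ps10 and Rps15a-ps4. Rpl9-ps6 had 0.80 ± 0.62 read-based and 36.9 ± 2.93 alignment-based TPM. Rps2-ps10 had 125 ± 29.9 read-based and 109 ± 15.9 alignment-based TPM, with almost the whole level on its transcript annotated as processed transcript, and Rps15a-ps4 had 2.20 ± 0.95 and 2.97 ± 1.39 TPM (SD, n = 4 each). In Rps26-ps1 the alignment-based level lay mostly on the pseudogene transcript, at 184 ± 40.0 TPM, and at 8.58 ± 2.47 TPM on a processed transcript.

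Rpl36a-ps1, also protein-coding, had 0.95, 2.93, 3.37 and 0 alignment-based TPM in libraries 1 to 4 and was at 0 in the read-based tables. Its call as lower was lost without library 1, 2 or 3. Rpl10-ps1, Rpl36-ps4 and Rpl9-ps1 were at 0 in every library of both quantifications, and Rpl10-ps1 is identical to Rpl10. Rpl19-ps3 was at 0 in the alignment-based tables and at 0.63 ± 0.27 read-based TPM. Rpl29-ps2 and Rps2-ps9 stayed under 1 TPM in every library of both.

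Many pseudogenes lie within other genes. On the sense strand 32 overlap another annotated gene, 60 overlap one on the antisense strand alone, and 197 overlap none. At least 1 alignment-based TPM in every library was reached by 9, 15 and 24 of these. Exons of a gene on the same strand were overlapped by 7 pseudogenes and of one on the opposite strand by 4, among them Rps23-ps1, which overlaps Gm5148. The use of strand in counting is not given in the sources used here, so whether reads of Rps23-ps1 and Gm5148 were told apart is not known.

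Among the 9 within a sense gene, some hosts are expressed in these cells and some are not. Rpl36a-ps2 lies within Ddah1, which had 0.0075 ± 0.015 alignment-based TPM against the pseudogene's 466 TPM, and Rps19-ps6 (185 TPM) lies within Tecpr2 (2.63 ± 0.517 TPM). Rpl18-ps1 lies within Ctla4, the inhibitory receptor gene of T cells, and had 0 read-based and 2.26 ± 0.44 alignment-based TPM, against 29.2 ± 6.67 read-based and 20.3 ± 4.90 alignment-based TPM for Ctla4. In 6 pseudogenes the closest ribosomal protein gene was not the one in the symbol. For Rpl13-ps1 it was Rpl18 at 53.0% identity, beside 50.4% for Rpl13, and values this low do not show a relation. The hosts named here, and Rpl18-ps1, were chosen after their values were seen.

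On the X chromosome lie 34 of the 289, more than on any other chromosome, and 4 of these reached 1 alignment-based TPM in every library. They include Rps2-ps13 (52898588 to 52899469, plus strand) and Rpl3-ps1 (13202571 to 13203780, plus strand). The next highest numbers are 22 on chromosome 7 and 19 each on chromosomes 1 and 2.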

How the data were processed

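Values refer to mm10 and GENCODE M21, per the text deposited with each library. The aligner is not given in the sources used here, nor is the quantifier. Alignment-based gene tables hold deposited expected counts, TPM and, as scores per the file headers, posterior SDs and interval bounds. Read-based transcript tables hold deposited estimated counts and TPM, which were summed per gene here (55450 of 55536 genes). Each library was quantified alone. TPM of short genes depends on the fragment length assumed, which differed between the quantifications, and reads were assigned to the C57BL/6 reference.

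Members were found by symbol and joined by gene identifier. Members and lists were chosen with earlier results of these data known. Expected counts were rounded to whole numbers for edgeR 4.0.16 (R 4.3.3, TMM, filterByExpr, trended dispersion, intercept only, goodness-of-fit test of the fitted deviance). Differences between quantifications were tested with limma 3.58.1 in genes with a mean of at least 0.5 TPM in either, and called at an adjusted p below 0.05 and a size of at least 1. DESeq2 1.42.0 was an alternative. Identity was computed with edlib 1.3.9.post1 in Python 3.11.15, as the best placement of the shorter sequence in the longer. The tests were checked on simulated data. Named genes are the 20 members highest in TPM, the 5 highest in counts, those varying between libraries, the 10 largest called differences, those annotated as anything but a processed or unprocessed pseudogene, the 3 nearest to 1 TPM on each side, and their parents. Without molecular identifiers, PCR copies count as reads, and floors cover counting error alone. Alternatives were other scalings, filters, pseudocounts, posterior means and leaving out each library. Some genes are not reported by name here, though they remain in the counts.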

Additional observations from a re-analysis of the deposited data

Results flagged for a closer look

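Of 60 sets of 4 library values for named pseudogenes, 6 had a library far from the other three, and chance flags about 1 in 20 sets of continuous values. That rate does not hold for 5 of the 6, where the others were all at 0. Rps12-ps3 had 14.1 read-based TPM in library 2 and at most 0.692 in the others. Rpl34-ps1 had 1.65 read-based TPM in library 2, Rps15a-ps7 0.935 in library 2 and Rps26-ps1 0.750 in library 3, each with 0 in the other libraries. Rpl30-ps9 had 5.34 alignment-based TPM in library 1 and Rpl29-ps2 0.15 in library 4, each with 0 in the others.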

How the results depend on the processing

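The summed level of the pseudogenes was 3994 TPM with read-based TPM, 9248 with posterior mean TPM and 9422 to 9572 without 1 library, against 9521 as reported. The number with at least 1 TPM in every library was 24 with read-based TPM, 59 with posterior mean TPM and 48 to 50 without 1 library, against 48. A threshold of at least 10 expected counts in every library, in place of TPM, gave 46. The number varying between libraries, 4, was 7 with posterior mean counts, 3 with DESeq2 dispersion outliers, 6 with no filter, 4 with RLE size factors and 1 to 4 without 1 library. In that order the settings called 1.44%, 0.847%, 1.18%, 1.37% and 0.873% to 1.1% of all genes tested, against 1.4% as reported. DESeq2 kept the call of Rps15a-ps7 and lost those of Rps6-ps4, Rps26-ps1 and Rps27a-ps2, and the setting with no filter lost that of Rps27a-ps2. The number differing between quantifications, 41, was 31 to 59 under the other settings and 39 to 40 without 1 library. The lowest came with a pseudocount of 5, which called 3.89% of all genes tested. The 59 came with posterior mean TPM, which called 27.7% of all genes tested, against 9.71% as reported. A pseudocount of 0.1 gave 50, with 37 lower and 13 higher (14.1%), where 16.6% of all genes tested were higher. CPM in place of TPM, an alternative chosen after seeing the data, gave 35 of 62 pseudogenes tested, with 33 lower (53.2%) and 2 higher (3.23%). Over all genes tested in that setting 1.92% were lower and 12.0% higher. With read-based TPM the log2 ratio to the parent turned to -14.15 for Rps23-ps1, -13.48 for Rpl10-ps3, -10.95 for Rps12-ps3, -12.83 for Rpl36a-ps2 and -12.67 for Rpl27-ps3, while 34 other named ratios kept their direction. The levels of 29 of 39 named pseudogenes moved by more than the SD over libraries with read-based TPM, and those of 14 with posterior mean TPM. The cause was not tested. No paired analysis was possible because there is 1 group, and no second group shares its replicate numbers. The quantifications, and each pseudogene and its parent, were compared within a library in the results as reported.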
